A study of Homo sapiens with 2 samples.

Results

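KMT2A and the genes whose products it fuses with or works with in leukemia were compared between a control AML culture and a culture labelled as over-expressing UNC5B. They were chosen by name as 10 entries of the deposited expression table, KMT2A, MLLT3, MLLT1, MLLT10, AFF1, AFF4, MEN1, PSIP1, DOT1L and CDK9, out of 50868 genes listed. All 10 were found under these symbols, and all 10 had at least 10 reads over both libraries, as 15384 genes did. RNA-seq was performed on Molm13 (MOLM-13), a human acute myeloid leukemia (AML) cell line that carries a KMT2A::MLLT3 fusion. The control library (Vector, 1 library) came from cells with the overexpression control, and the other (OE-UNC5B, 1 library) from cells whose label gives over-expression of UNC5B. According to the methods, UNC5B was delivered by a lentivirus packaged in HEK-293T cells, with a CMV promoter, an mCherry marker and puromycin selection. Per the labels, both cultures grew in medium with fetal bovine serum and antibiotics. The comparison asked which genes differ once UNC5B, a netrin receptor, is over-expressed.

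KMT2A is a histone H3 lysine methyltransferase that keeps developmental genes such as the HOX genes active. In leukemia its N-terminal part is joined to a partner protein, most often a subunit of the machinery that releases paused RNA polymerase II or of the DOT1L methyltransferase complex. The N-terminal part stays bound to menin (MEN1) and LEDGF (PSIP1), which hold it on chromatin, while partners such as MLLT3, MLLT1, AFF1 and AFF4 bring in the kinase CDK9 within the super elongation complex, and MLLT10 works with DOT1L. In a cell with a KMT2A::MLLT3 fusion, reads from the fusion transcript fall on the KMT2A and MLLT3 genes along with reads from the intact alleles, and counts per gene cannot tell these apart.

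The libraries held 13715566 reads (Vector) and 15637137 reads (labelled OE-UNC5B) counted on genes. UNC5B had 0 reads in each library, so the over-expression was not visible, and each direction given here rests on the labels. All 10 markers of AML cells had reads in both libraries, and their summed level was 1871 FPKM (reads scaled by the authors to gene length and to library size) in Vector and 986 FPKM in the OE-UNC5B-labelled library. Lysozyme (LYZ) made up most of this sum, at 1455 and 585 FPKM. MPO, a granule enzyme of myeloid cells, was also lower, at 50.7 and 20.5 FPKM, whereas FLT3, a receptor kinase of blast cells, was at 59.2 and 81.6 FPKM and PTPRC, the pan-leukocyte marker, at 12.2 and 20.8 FPKM. By the read test introduced in the next paragraph, 4 of the 10 were lower, LYZ (log2 fold change -1.36), MPO (-1.35), SPI1 (-0.23) and CEBPA (-0.16). Another 5 were higher, ITGAX (1.10, from 89 against 225 reads), PTPRC (0.73), FLT3 (0.42), CD4 (0.31) and CD33 (0.14). CSF1R, at 0.17, did not pass (adjusted p = 0.181, exact binomial test). Of all tested genes, 22.8% were higher and 24.2% lower by this test. Of those with at least as many reads as MLLT3, 32.1% were higher and 34.0% lower. EPCAM, KRT8 and CDH1 of epithelial cells, CDH5 and KDR of endothelial cells, and PAX2, a marker chosen for the packaging line, had 0 reads in each library. The 4 epithelial markers summed to 5 and 2 reads, the 3 T cell markers to 70 and 102 reads, nearly all of CD3D, the 3 B cell markers to 4 and 12 reads and the 3 erythroid markers to 14 and 8 reads. The 3 endothelial markers summed to 1626 and 1471 reads, all of PECAM1. Within the AML list the markers moved both ways, and the part of these changes in the differences given next was not tested. In RNA from a whole culture, fewer cells of a kind and less RNA per cell cannot be told apart.

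Since each group was 1 library, differences lack a replicate check, and the conditions could not be tested. Log2 fold changes compare the OE-UNC5B-labelled library with Vector after TMM scaling, with 0.5 reads added. The 95% intervals come from the exact binomial distribution of the reads and cover counting error only. A gene passed the read test when the exact binomial test on its reads, adjusted over all 15384 genes, gave an adjusted p under 0.05, which compares the libraries and not the conditions.

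Of the 10 genes, AFF1 was higher by a wide margin, AFF4, MLLT10, PSIP1, MLLT3, KMT2A and DOT1L were higher by less, and MEN1 and MLLT1 were lower. At a change of at least 1.5-fold, 2 of the 10 were higher (AFF1 and AFF4), where 12.9% of all tested genes were, and 1 was lower (MEN1), where 12.5% were. At 2-fold, AFF1 alone was higher, where 5.27% of tested genes were, and 0 members were lower, where 4.72% were. These shares are near those of all genes. By the read test, 7 members were higher and 2 were lower, against 22.8% and 24.2% of tested genes. That test passes more easily at high depth: among the 8230 genes with at least as many reads as the lowest member, MLLT3, the shares were 32.1% higher and 34.0% lower. The median log2 fold change was 0.35 over the 10 genes, 0.29 without AFF1 and -0.01 over all tested genes. With the median of genes of like length (taken as count over FPKM) subtracted, the median of the 10 was 0.21. With a biological coefficient of variation of 0.2 between cultures assumed in edgeR's exact test, AFF1 was the only member to pass (adjusted p = 0.000353), among 1.64% of tested genes. At 0.1, AFF4 (adjusted p = 0.0333, edgeR's exact test) and MEN1 (adjusted p = 0.0112) passed as well, among 11.7% of tested genes. At 0.4 no member passed, where 0.0975% of tested genes did, and the adjusted p of AFF1 was 1.

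**Figure D1:**
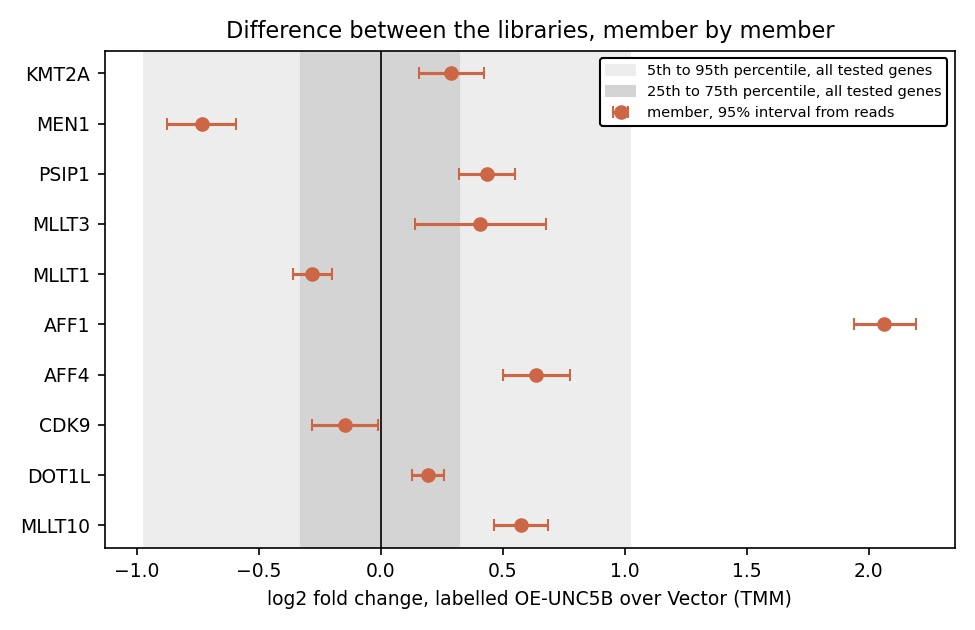
Log2 fold change of each of the 10 genes between the OE-UNC5B-labelled library and Vector (points, 1 library each), with 95% intervals from the reads as bars and the spread of all tested genes as grey bands. AFF1, at 2.07, lies outside the band from the 5th to the 95th percentile (-0.97 to 1.02), and the other 9 genes lie inside it.

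AFF1, also called AF4, is a scaffold of the super elongation complex and a frequent KMT2A partner in acute lymphoblastic leukemia. Its GRCh38 locus is on chromosome 4, plus strand, from 86935002 to 87141054. AFF1 received 600 reads in Vector and 2961 in the OE-UNC5B-labelled library, which is 44.5 and 186 CPM (counts scaled to the TMM-adjusted library size). The difference was 4.18-fold (95% interval 3.83 to 4.58), 2.07 on the log2 scale, and 1.87 with the median of genes of like length subtracted. Only 147 of the 15384 tested genes, AFF1 included, had a log2 fold change at least as high, and among the 5932 genes with at least 1000 reads 15 did, again with AFF1. In GENCODE 44, none of the exonic bases of AFF1 lies in an exon of another annotated gene (0%), and 0% of the 75-base stretches of its main transcript occur in another gene.

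RefSeq gives AFF1 a pair of starts, 72260 bases apart, and counts per gene do not show which start the additional reads came from. The windows around them, from 250 bases before to 50 bases after each start, are printed because AFF1 carries the largest difference of the set (RefSeq, GRCh38.p14, plus strand, chr4:86934761-86935060 and chr4:87007021-87007320). Capitals mark matches, searched on both strands. The TATA box was searched as TATAAA. For the CCAAT box the letters were those of its name. The GC box was spelled GGGCGG and the E-box was spelled CACGTG.
AFF1 upstream start: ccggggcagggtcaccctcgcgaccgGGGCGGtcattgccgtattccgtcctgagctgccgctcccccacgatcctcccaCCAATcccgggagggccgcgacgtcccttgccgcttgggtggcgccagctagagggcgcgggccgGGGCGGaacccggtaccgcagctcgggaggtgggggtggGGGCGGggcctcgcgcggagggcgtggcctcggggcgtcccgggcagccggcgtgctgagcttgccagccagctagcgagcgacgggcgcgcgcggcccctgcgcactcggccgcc
AFF1 downstream start: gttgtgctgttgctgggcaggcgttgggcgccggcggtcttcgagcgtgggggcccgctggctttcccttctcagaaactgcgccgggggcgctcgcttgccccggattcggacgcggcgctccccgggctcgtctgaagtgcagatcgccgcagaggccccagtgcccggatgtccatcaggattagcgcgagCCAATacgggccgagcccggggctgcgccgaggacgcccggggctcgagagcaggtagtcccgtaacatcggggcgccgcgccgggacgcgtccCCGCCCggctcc
The upstream window held 3 GC boxes and 1 CCAAT box, with a GC content of 77.7%, and the downstream window held 1 of each, with 72.7%. Neither had a TATA box. Of 35116 RefSeq windows of this length, 45.0% hold a GC box, 34.6% a CCAAT box, 11.5% a TATA box and 7.26% an E-box, and their median GC content was 58.7%.

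AFF4, the other AF4 family scaffold among the 10 genes and the central scaffold of the super elongation complex, was also higher. It lies on chromosome 5 from 132875379 to 132963634 on the minus strand. AFF4 received 668 reads in Vector and 1225 in the OE-UNC5B-labelled library, a log2 fold change of 0.64 (0.50 to 0.78) or 1.56-fold. It was no longer past 1.5-fold with the median of genes of like length subtracted (0.55 on the log2 scale). Its promoter window is shown for comparison with those of AFF1, and its GC content was 74.7% (minus strand, chr5:132963585-132963884).
AFF4 start: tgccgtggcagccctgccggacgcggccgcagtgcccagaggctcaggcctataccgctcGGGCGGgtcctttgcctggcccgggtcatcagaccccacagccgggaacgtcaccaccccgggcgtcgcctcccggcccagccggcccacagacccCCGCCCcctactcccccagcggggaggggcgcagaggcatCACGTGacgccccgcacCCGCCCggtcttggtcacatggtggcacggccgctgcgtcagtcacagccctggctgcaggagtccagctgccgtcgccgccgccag
It held 3 GC boxes and 1 E-box. AFF3, a further AF4 family member, had 953 reads against 944 reads, a log2 fold change of -0.25 (-0.38 to -0.12), so it did not share the direction of AFF1 and AFF4, and AFF2 had 0 reads in each library. In Vector AFF1 gave 38.6% of the summed FPKM of AFF1 and AFF4, and in the OE-UNC5B-labelled library it gave 62.9%, so the more abundant of the pair changed from AFF4 to AFF1. Per kilobase of the main transcript, AFF1 gave 48.0% and 71.3%. The ratio of AFF1 to AFF4 was 2.69 times higher in the OE-UNC5B-labelled library (exact 95% interval from the reads 2.36 to 3.07), a value that does not depend on the scaling of the libraries.

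The readers of acylated histones MLLT3 (AF9) and MLLT1 (ENL), which are paralogs with a YEATS domain, moved in opposite directions. MLLT3 lies on chromosome 9 from 20341665 to 20622543 and is the fusion partner in these cells. It had the fewest reads of the 10 genes, 191 in Vector and 299 in the OE-UNC5B-labelled library, a log2 fold change of 0.41 (0.14 to 0.68, adjusted p = 0.00553, exact binomial test). MLLT1 lies on chromosome 19 from 6210379 to 6279948, and had 2553 reads against 2480 reads. With the larger second library taken into account, this is a log2 fold change of -0.28 (-0.36 to -0.20). The ratio of MLLT3 to MLLT1 was 1.61 times higher in the OE-UNC5B-labelled library (1.33 to 1.96). MLLT1 stayed far above MLLT3 by level, 33.0 times higher in Vector and 20.5 times higher in the OE-UNC5B-labelled library on the FPKM scale. Per kilobase of the main transcript, a scale chosen after seeing the data, the ratios were 19.8 and 12.3. The intact MLLT3 alleles and the fusion both enter the MLLT3 value. Of the 75-base stretches of the main transcripts of MLLT1, MLLT3, AFF1 and AFF4, 0% occur in another gene.

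CDK9, the kinase of P-TEFb that phosphorylates paused polymerase II, received 879 reads in Vector and 937 in the OE-UNC5B-labelled library. It lies on chromosome 9 from 127785679 to 127790787. Its log2 fold change of -0.14 (-0.28 to -0.01) did not pass the read test (adjusted p = 0.0689, exact binomial test), and CDK9 was the only member that did not. Relative to AFF4, CDK9 was at 0.581 times its Vector ratio (0.508 to 0.665). Summed over AFF1, AFF4, MLLT1, MLLT3 and CDK9, the super elongation complex members held 4891 reads against 7902 reads, a log2 fold change of 0.45 (0.40 to 0.51). AFF1 carried this rise: without it, the other 4 summed to 4291 against 4941 reads, a log2 fold change of -0.03 (-0.09 to 0.03), an interval that includes 0. On the FPKM scale, where the short and abundant MLLT1 and CDK9 weigh more, the sum over all 5 was 57.4 and 61.2 FPKM, and without AFF1 it was 55.1 and 51.5 FPKM.

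Menin and LEDGF, the cofactors that bind the N-terminal part of KMT2A, diverged. MEN1 encodes menin, a tumor suppressor in endocrine glands that KMT2A fusions need in leukemia, and lies on chromosome 11 from 64803510 to 64811294 on the minus strand. MEN1 received 986 reads in Vector and 699 in the OE-UNC5B-labelled library, although the second library was larger. On the TMM scale it fell by 39.8%, a log2 fold change of -0.73 (-0.88 to -0.59), the largest decrease among the 10 genes. From FPKM with 1 added it was -0.57, short of 1.5-fold. Of the 5932 genes with at least 1000 reads, 189, MEN1 included, had a log2 fold change as low or lower, as did 1348 of all 15384 tested genes. PSIP1 encodes LEDGF, a chromatin reader with a PWWP domain, and lies on chromosome 9 from 15464066 to 15511019. PSIP1 rose (1004 against 1602 reads), with a log2 fold change of 0.44 (0.32 to 0.55). The ratio of MEN1 to PSIP1 in the OE-UNC5B-labelled library was 0.444 times that in Vector (0.391 to 0.504). For PSIP1, 2.14% of 75-base stretches also occur in a pseudogene, and 1.05% of exonic bases lie opposite SNAPC3. The most upstream MEN1 promoter window is shown because MEN1 fell the most (minus strand, chr11:64810637-64810936).
MEN1 upstream start: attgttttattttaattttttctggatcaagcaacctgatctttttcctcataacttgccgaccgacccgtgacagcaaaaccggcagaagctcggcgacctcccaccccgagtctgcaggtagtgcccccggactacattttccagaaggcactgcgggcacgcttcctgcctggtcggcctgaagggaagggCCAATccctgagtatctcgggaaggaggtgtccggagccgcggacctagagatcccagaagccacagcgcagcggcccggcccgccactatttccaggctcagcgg
This window held 1 CCAAT box and none of the other 3 motifs, and its GC content was 58.3%, near the median of all windows. A further MEN1 window that overlaps it held 2 GC boxes and 1 CCAAT box, with a GC content of 68.0%.

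KMT2A itself, on chromosome 11 from 118436490 to 118526832 on the plus strand, received 800 reads in Vector and 1153 in the OE-UNC5B-labelled library. Its log2 fold change was 0.29 (0.16 to 0.42). Genes long by count over FPKM were higher as a class in that library. The 1000 tested genes nearest to KMT2A in this length had 0.22 as their median log2 fold change. With this median subtracted KMT2A was at 0.07, below the interval from its reads. The ratio of KMT2A to MLLT3, the genes joined in the fusion, was 0.921 times its Vector value (0.747 to 1.13), so no difference between them was detectable at this depth. An unnamed gene model on the same strand covers 18.3% of KMT2A exonic bases. Of the 75-base stretches of the main KMT2A transcript, 21.3% also occur in that model. The model is not among the genes listed by the authors, so no reads were counted on it.

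DOT1L, the histone H3 lysine methyltransferase that acts on the core of the nucleosome, and MLLT10 (AF10), its cofactor and a KMT2A partner, were both higher. DOT1L lies on chromosome 19 from 2164149 to 2232578 and had the most reads of the set, 3200 in Vector and 4317 in the OE-UNC5B-labelled library, a log2 fold change of 0.19 (0.13 to 0.26). With the median of genes of like length subtracted, it was 0.09. MLLT10 lies on chromosome 10 from 21524675 to 21743630. It had 1017 reads against 1786 reads, a log2 fold change of 0.58 (0.46 to 0.69) or 1.49-fold, just short of the 1.5-fold threshold that AFF4 passed, and past it when library totals replaced TMM (0.62 on the log2 scale). Relative to DOT1L, MLLT10 was higher by 0.38 on the log2 scale (0.25 to 0.51). Exons of other genes on the opposite strand cover 11.3% of DOT1L exonic bases, and whether the counting used strand is not given in the sources used here.

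**Figure D2:**
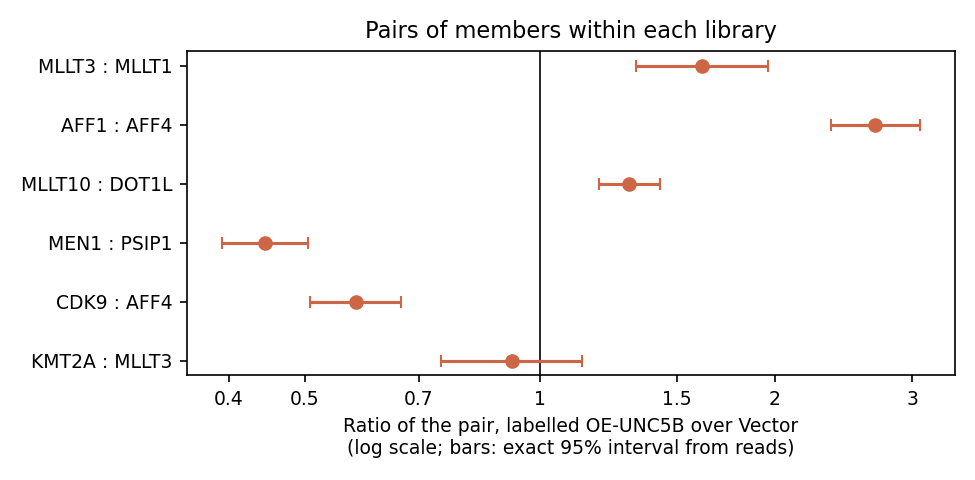
Ratio of each of 6 pairs of genes in the OE-UNC5B-labelled library over the same ratio in Vector, on a log axis, with exact 95% intervals from the reads. The interval of KMT2A to MLLT3 includes 1, and those of the other 5 pairs do not.

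These 6 pairs were all that were compared, and the intervals were not adjusted for their number. By FPKM, MLLT1 was the most abundant of the 10 genes in each library and MLLT3 the least, with KMT2A next to last. In Vector the order on the FPKM scale was MLLT1 (34.8), CDK9 (15.7), DOT1L (15.7), PSIP1 (7.46), MLLT10 (6.49), MEN1 (6.18), AFF4 (3.57), AFF1 (2.24), KMT2A (1.95) and MLLT3 (1.05). In the OE-UNC5B-labelled library it was MLLT1 (29.7), DOT1L (18.6), CDK9 (14.7), PSIP1 (10.4), MLLT10 (9.99), AFF1 (9.71), AFF4 (5.74), MEN1 (3.84), KMT2A (2.47) and MLLT3 (1.45). With 1 library per group there is no spread to say which neighbours in these orders differ. AFF1 moved from the eighth place to the sixth and MEN1 from the sixth to the eighth.

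**Figure D3:**
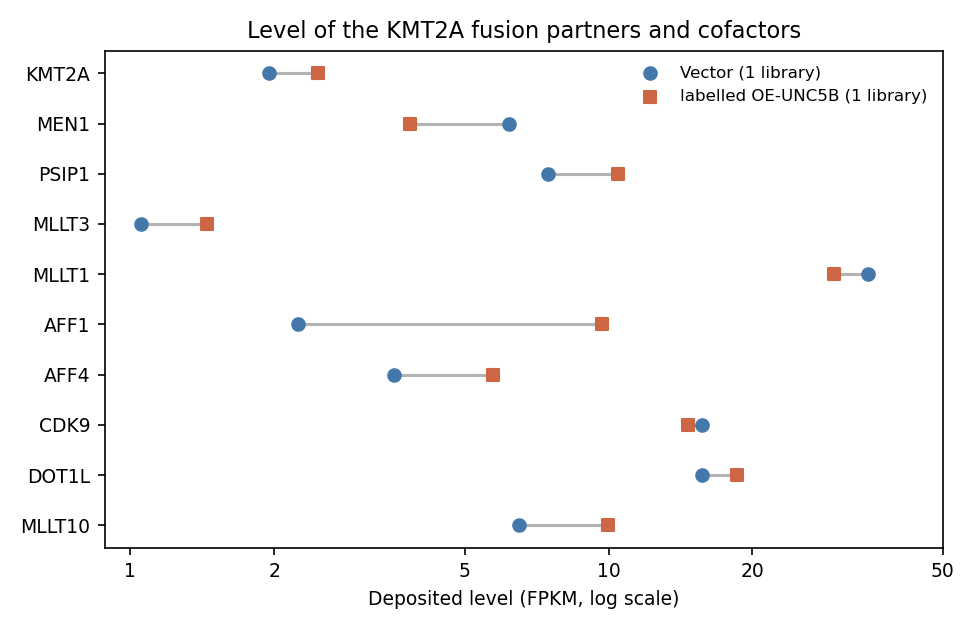
Deposited level of the 10 genes in FPKM, on a log axis, in Vector (circles) and the OE-UNC5B-labelled library (squares), 1 library each, in the order of their roles. The widest gap is that of AFF1, from 2.24 to 9.71 FPKM, and MEN1, MLLT1 and CDK9 are the genes with the square to the left.

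The FPKM values divide by a gene length that exceeded the main transcript for all 10 genes, from 1.18 times for MLLT1 to 4.29 times for MEN1. With CPM divided by the length of the main transcript in kilobases, an alternative chosen after seeing the data, MEN1 took the third place in Vector at 27.0 and the seventh in the OE-UNC5B-labelled library at 16.2, and DOT1L took the first place from MLLT1 in the latter, at 35.5 against 34.4. MLLT3 and KMT2A stayed last and next to last in each library.

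Other genes of the same complexes moved less than AFF1. Over 8 lists of 74 genes, 73 were tested, with a median log2 fold change of 0.13. Of these, 4 were higher and 2 lower by at least 1.5-fold, and 29 were higher and 15 lower by the read test. At 1.5-fold these are 5.48% and 2.74% of the 73, below the 12.9% and 12.5% of all tested genes. By the read test they are 39.7% and 20.5%, beside 22.8% and 24.2% of all tested genes and 32.1% and 34.0% of those with at least as many reads as MLLT3. In the elongation machinery outside the 10 genes, 8 of 9 were tested and the median was 0.03. CCNT2, a cyclin partner of CDK9, rose (211 against 386 reads), with a log2 fold change of 0.63. CCNT2 was short of 1.5-fold with the median of genes of like length subtracted (0.44) and from FPKM with 1 added (0.35). CCNT1, the other cyclin T, named after its values were seen, had 932 reads against 1044 reads, a log2 fold change of -0.07. AFF3, described above, was the lowest of this list. Among the 7 tested genes of the 7SK particle and BET proteins, 0 passed 1.5-fold with TMM scaling, and 2 were higher and 2 lower by the read test. HEXIM2, which had 11 against 19 reads and was named after its values were seen, passed 1.5-fold only with the median of genes of like length subtracted (0.63 on the log2 scale). With TMM scaling HEXIM2 was at 0.53 (-0.59 to 1.77), an interval that includes 0. From FPKM with 0.1 or 1 added, HEXIM2 was at 0.39 and 0.09. MEPCE, which caps 7SK RNA, had a log2 fold change of -0.24 (1513 against 1512 reads), the lowest of that list.

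The 8 core genes of the KMT2A and KMT2B methyltransferases had a median of 0.10 with 0 past 1.5-fold, and 4 of the 8 higher and 1 lower by the read test. Of all tested genes 12.9% and 12.5% were past 1.5-fold higher and lower, and 22.8% and 24.2% were higher and lower by the read test, or 32.1% and 34.0% among genes with at least as many reads as MLLT3. HCFC2, a host cell factor subunit, was the highest at 0.46 (121 reads against 197 reads) and TASP1, the protease that cleaves KMT2A, the lowest at -0.23 (237 reads against 238 reads), which did not pass the read test. All 4 tested relatives and partners of DOT1L, MLLT3 and MLLT10 were above 0, as 49.5% of all tested genes were, and 2 were higher by the read test. YEATS4, a further YEATS domain reader, led them at 0.49, and CBX8, a Polycomb protein that binds MLLT3, was the lowest at 0.09. The 5 genes of H2B ubiquitylation, a mark that stimulates DOT1L, had a median of 0.11, from UBE2A at -0.16 to WAC at 0.26. With the median of genes of like length subtracted, the median of this list and WAC were both at 0.05. The PAF1 complex, which binds KMT2A, had a median of -0.12 over 6 genes, and CDC73 at 0.34 was the only one of them above 0, with RTF1 the lowest at -0.41 (1278 reads against 1136 reads). The list of the LEDGF relative HDGFL2 and the HBO1 acetyltransferase complex, 10 genes, had a median of 0.04, or -0.02 with the median of genes of like length subtracted, with ING4 the highest at 0.30 and HDGFL2 the lowest at -0.26.

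The 27 further KMT2A fusion partners include ELL, also in the elongation list, and MLLT6, also in the list of DOT1L relatives. Over all 8 lists each of these genes was counted once. The 27 had 0.25 as their median log2 fold change, and 21 of them were above 0. By the read test 16 were higher (59.3%) and 5 lower (18.5%), beside 22.8% and 24.2% of all tested genes, of which 49.5% were above 0, and beside 32.1% and 34.0% of the 8230 genes with at least as many reads as MLLT3. At 1.5-fold 3 were higher (11.1%) and 2 lower (7.41%), beside 12.9% and 12.5%. ARHGEF12, a guanine nucleotide exchange factor, rose (109 against 269 reads), by a log2 fold change of 1.06 (0.74 to 1.40). SEPTIN9, a cytoskeletal GTPase, was lower (1208 against 574 reads), with a log2 fold change of -1.31 (-1.46 to -1.17). With TMM scaling no further gene of the 8 lists was past 2-fold. GAS7, a growth arrest gene named after its values were seen (920 against 2115 reads), had a log2 fold change of 0.96, and 1.01 with library totals. ARHGEF12 was short of 2-fold with the median of genes of like length subtracted (0.84) and from FPKM with 0.1 added (0.86). From FPKM with 1 added, ARHGEF12 was at 0.29, short of 1.5-fold, and SEPTIN9 at -0.82, short of 2-fold. With the median of genes of like length subtracted, the median of this list was 0.20.

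**Figure D4:**
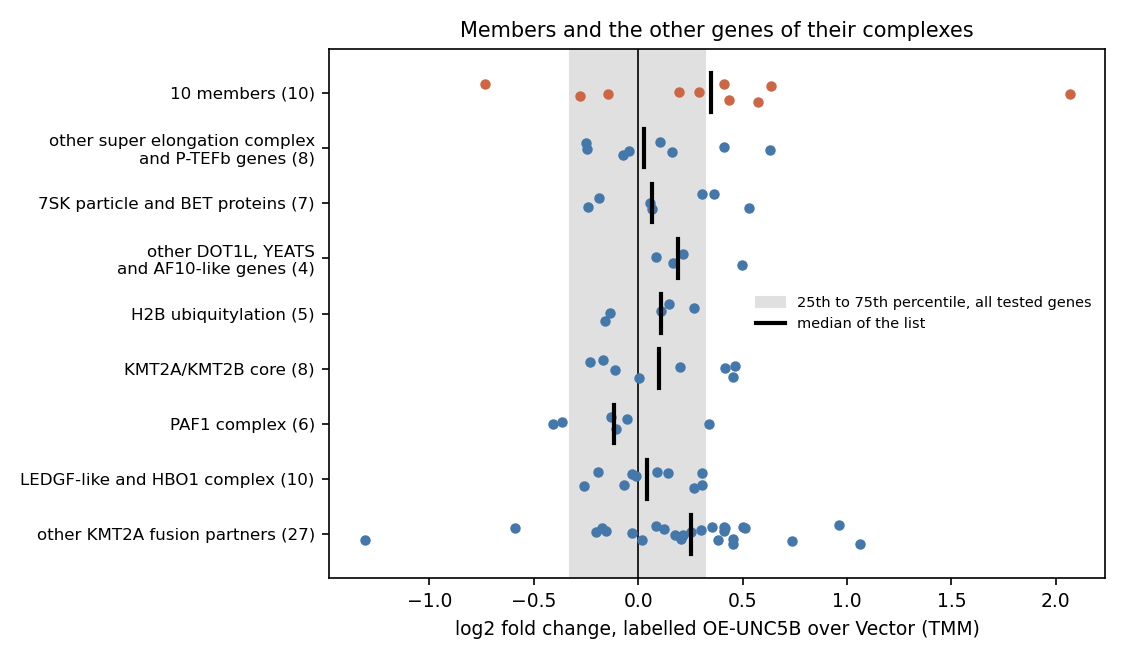
Log2 fold change of the 10 genes and of the tested genes of 8 lists of related genes (points, 1 gene each, with the number of genes in brackets and black bars for medians), with the grey band for the middle of all tested genes. AFF1 is the point farthest to the right, at 2.07, and SEPTIN9 the farthest to the left, at -1.31.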

How the data were processed

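RNA from MOLM-13 cells, 1 library per group, was made into libraries with the VAHTS Universal V6 kit and sequenced on an Illumina HiSeq platform, and the submitters' processing notes name bcl2fastq 2.19, HISAT2 2.0.4, StringTie 1.3.0 and GRCh38. The annotation release, counting tool and use of strand are not given in the sources used here. The table deposited by the authors gives raw counts for each gene. The deposited FPKM values were scaled by the authors to gene length and counted reads: dividing count by FPKM gave values that differed between libraries by 1.139 to 1.140 times, as the totals did (1.140).

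TMM factors came from edgeR 4.0.16 in R 4.3.3, and a gene was tested from 10 reads upward, summed over the libraries. Exact 95% Clopper-Pearson intervals (scipy 1.17.1) cover counting error only, since 1 library per group gives no spread between cultures. They treat reads as independent molecules, which reads are not, and so may be too narrow. A count of 0 allows up to 3 reads, or 0.222 CPM in Vector and 0.189 CPM in the OE-UNC5B-labelled library. edgeR's quasi-likelihood test could not be fitted with 1 library per group. The read test was an exact binomial test with Benjamini-Hochberg adjustment over all tested genes. Its code was run on simulated Poisson counts without variation between cultures. Such counts follow the model of the test, so they cannot show how it performs on real cultures. Pairs were compared by the conditional exact interval of the odds ratio of 4 counts. Gene length was taken as count over FPKM, exons and main transcripts from GENCODE 44, and promoter windows from RefSeq, in which 9 of the 10 genes had one and DOT1L had none. The rule named the 10 genes, UNC5B, the marker genes, and in each list genes past 2-fold and the highest and lowest gene among those with at least 50 reads. The highest gene of the list of 7SK and BET genes is not reported here. The genes, lists and pairs were chosen with earlier results of these data known. The alternatives used DESeq2 1.42.0 size factors, library totals, 2 reads added, FPKM with 0.1 or 1 added, subtraction of the median of the 1000 genes nearest in length, other minimums of reads, and edgeR's exact test with an assumed coefficient of variation of 0.1, 0.2 or 0.4. SKIC8 was matched by its gene identifier.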

Additional observations from a re-analysis of the deposited data

How the results depend on the processing

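No paired analysis was possible because each group held 1 library, so leaving a library out was not possible either. Each of the 10 genes kept the sign of its log2 fold change under all 6 alternatives run on it. With the median of genes of like length subtracted, log2 fold changes beyond the interval from the reads were 0.071 for KMT2A, -0.19 for MLLT1, 1.87 for AFF1 and 0.091 for DOT1L. With FPKM and 1 added, they were 1.72 for AFF1 and -0.57 for MEN1, by construction smaller. Members higher by 1.5-fold were 1 with the length median subtracted, 1 with FPKM and 1 added, and 3 with library totals, DESeq2 size factors and FPKM with 0.1 added, where MLLT10 passed. With FPKM and 1 added, 0 were lower. With an assumed coefficient of variation of 0.1, 0.2 and 0.4 in edgeR's exact test, 2, 1 and 0 members were higher and 1, 0 and 0 were lower. In the 8 lists, genes higher by 1.5-fold were 2 with FPKM and 1 added, where CCNT2 and ARHGEF12 no longer passed. With the length median subtracted they were 5, where HEXIM2 and YEATS4 passed and CCNT2 no longer did. Genes lower were 1 with library totals, DESeq2 size factors and both FPKM settings. Other minimums of reads and FPKM in the pairs changed no call. Depth limited MLLT3 most, with 490 reads over both libraries.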

Other observations

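The tested protein-coding genes next to AFF1 and MEN1 were looked at after the values were seen. On the side of its end, AFF1 is followed by KLHL8 (646 against 869 reads, log2 fold change 0.19) and HSD17B11 (1437 against 2041 reads, 0.27). On the side of its start, C4orf36, whose locus as listed by the authors runs past the start of AFF1, had 84 against 100 reads (0.01). WDFY3, the next tested gene there but much farther away, had 363 against 803 reads (0.91). All 4 were below the 2.07 of AFF1. Next to MEN1, MAP4K2 had 191 against 174 reads (-0.37, from -0.68 to -0.07) and EHD1 531 against 461 reads (-0.44, from -0.62 to -0.26), so both were lower as MEN1 was, whereas SF1 (3824 against 4497 reads, 0.00) and CDC42BPG (18 against 22 reads, 0.05, from -0.91 to 1.04) showed no detectable difference.

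Over all tested genes, the difference between the libraries changed with gene length. The 3846 shortest genes had -0.09 as their median log2 fold change and the 1539 longest 0.19, and of the latter 18.2% were higher and 6.95% lower by at least 1.5-fold. AFF1 and KMT2A are among these 1539 genes. The part of length in the differences of single genes was not tested further.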
